A study of Mus musculus with 8 samples.

Results

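The genes described here encode 10 surface proteins by which hematopoietic stem cells (HSCs) and progenitors of mouse bone marrow are sorted or told apart: Slamf1 (CD150), Cd48, Kit (c-Kit), Ly6a (Sca-1), Procr (EPCR), Esam, Tek (Tie2), Cd34, Flt3 and Il7r. They were chosen by symbol for their use in sorting, with earlier results of these data known. All 10 have counts, among 39107 genes with a count, and all 10 passed the filter on low counts that left 21902 genes to test. RNA came from cells labelled as hematopoietic stem cells of 6-month-old mice, 4 homozygous asrij floxed mice (replicates 1, 3, 4 and 5) and 4 asrij knockout (KO) mice (replicates 2, 3, 4 and 5), with 1 library for each mouse. Asrij is the mouse gene Ociad1, and the KO mice lack it in the whole body, so that marrow cells other than HSCs lack it too. The methods give mice of both sexes and a gate of LSK CD150+ CD48+ for the RNA-seq, where LSK means negative for lineage markers and positive for Sca-1 and c-Kit, and a gate of CD150+ CD48- for long-term HSCs in other assays.

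HSCs are rare marrow cells that renew themselves and give rise to all blood lineages, and they are recognised only by combinations of surface proteins. In the mouse, Sca-1 and c-Kit together mark stem and progenitor cells from which lineage-positive cells have been removed, CD150 without CD48 marks the long-term repopulating fraction, and EPCR, ESAM and Tie2 are further proteins found on it. CD34, FLT3 and the interleukin-7 receptor appear or rise as cells move towards multipotent and lymphoid progenitors. The comparison of KO with floxed libraries asks whether the genes of these proteins are transcribed at other levels in sorted cells without Asrij.

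Counts on genes ranged from 23412830 to 44874879 a library. The targeted gene, Ociad1, had 44.1 ± 15.7 CPM (reads per 1000000 reads of a library, with library sizes corrected by the trimmed mean of M-values, TMM; SD, n = 4) in floxed against 14.8 ± 3.62 CPM in KO libraries, and no KO library reached the lowest floxed one. The markers were mixed. Of 10 HSC regulators, transcription factors and other genes known from HSCs, Pdzk1ip1 was at 14.77 to 72.68 CPM, Gata2 at 15.49 to 56.87, Meis1 at 6.09 to 11.99 and Hlf at 5.0 to 10.63 CPM, and Mllt3 had genotype means of 14.2 and 22.3 CPM, whereas Hoxa9, Ctnnal1 and Mecom lay between 0.5 and 4.45 CPM, Fgd5 was at 0.16 to 1.09 CPM and Hoxb5 at 0.00 to 0.26 CPM. Of the genes of lineage proteins that the gate removes, some went against the label and others did not. Per kilobase of spliced length, the myeloid genes Itgam (CD11b) and Ly6g were at 8.18 to 18.6 times and 13.5 to 26.6 times the level of Kit in the same library. The T cell gene Cd3e was at 0.148 to 0.57 times the level of Kit, and the 8 T and NK cell genes of the list had genotype means of 1.42 to 11.8 CPM. The summed level of 11 neutrophil genes was 17012.8 to 52573.5 CPM. The cells are therefore called here by their label only. Floxed replicate 3 stood apart from the other libraries, being the lowest or highest of the 8 for 5 of the 10 genes, and KO replicate 3 had 9.73 CPM of Xist against 0.15 to 0.67 CPM elsewhere, with Y-linked transcripts in all 8 libraries, so values without these libraries are given where they moved most.

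Of the 10 surface genes, 1 differed between the genotypes. Esam, which encodes an adhesion molecule of endothelial cells, platelets and HSCs, was higher in every KO library than in every floxed library and rose 3.01-fold. It was called at an adjusted p below 0.05 and an absolute log2 fold change above 1.5, a rule that 1.19% of all genes tested met (0.452% in the higher direction), and 2.97% had an adjusted p below 0.05 at any fold. The other 9 genes did not pass the test, and 3 of them had higher and 6 lower fitted levels in KO. The median log2 fold change over the 10 was -0.10, beside -0.01 over all genes tested. As the RNA is from bulk cells, fewer cells of a type and less RNA per cell cannot be told apart.

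**Figure D1:**
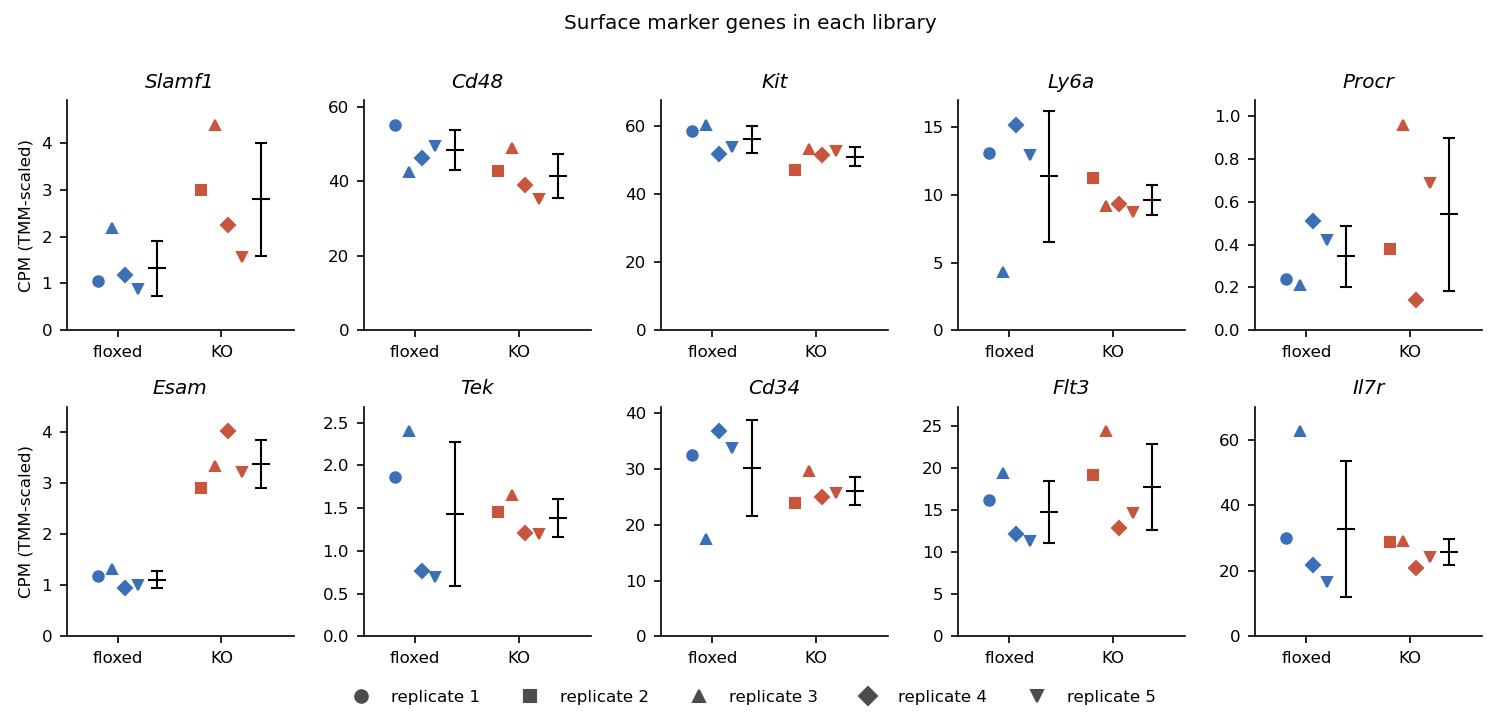
Level of each surface gene in CPM on a linear axis from 0 (8 libraries: floxed in blue, KO in red, marker shape for the replicate number; black bars, mean ± SD of 4 libraries). The 4 KO values of Esam, 2.90 to 4.01 CPM, all lie above the 4 floxed values, 0.94 to 1.32 CPM, and in the other 9 panels the genotypes overlap.

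Slamf1 and Cd48 encode related receptors of the SLAM family, which bind each other or themselves on neighbouring blood cells, and lie side by side on chromosome 1 of GRCm38. Slamf1 spans 171767127 to 171801184 and Cd48 171682009 to 171705258, both on the plus strand. Their promoters are shown because the pair carries the CD150 and CD48 gate. The stretches are the 250 bases before each start site from RefSeq (GRCm38.p6), at chr1:171766882-171767131 for Slamf1 and chr1:171681742-171681991 for Cd48, both read on the plus strand. Capitals mark matches to short motifs searched on both strands.
Slamf1: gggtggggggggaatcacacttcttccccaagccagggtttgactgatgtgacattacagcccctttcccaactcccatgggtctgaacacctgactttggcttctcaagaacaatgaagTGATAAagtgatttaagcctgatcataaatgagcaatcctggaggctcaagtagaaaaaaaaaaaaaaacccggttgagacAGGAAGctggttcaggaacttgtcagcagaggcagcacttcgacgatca
Cd48: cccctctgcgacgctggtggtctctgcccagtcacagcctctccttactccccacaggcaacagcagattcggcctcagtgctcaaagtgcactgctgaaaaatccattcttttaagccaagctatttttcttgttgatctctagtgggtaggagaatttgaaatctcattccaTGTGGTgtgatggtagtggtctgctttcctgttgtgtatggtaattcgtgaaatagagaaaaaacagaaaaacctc

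The motifs were AGATAA and TGATAA (the core bound by GATA factors), AGGAAG and CCGGAA (ETS factors), TGTGGT (RUNX factors) and CACGTG (an E-box). The Slamf1 stretch held 1 match to TGATAA, found in 7.94% of 32851 promoter stretches of the same length, and 1 to AGGAAG, found in 29.5%. The Cd48 stretch held 1 match to TGTGGT, found in 14.0%. The promoter table has entries for 8 of the 10 genes, without Ly6a and Esam. AGGAAG also occurred in the stretches of Kit, Cd34 and Il7r, and none of the 6 motifs occurred in those of Procr, Tek and Flt3. The matches are letters in a window and were not tested as binding sites.

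Slamf1 was low. It had 1.05, 2.19, 1.19 and 0.88 CPM in floxed replicates 1, 3, 4 and 5, against 3.0, 4.39, 2.24 and 1.56 CPM in KO replicates 2, 3, 4 and 5, from 23 to 169 counts a library. The lowest KO library lay below the highest floxed one, floxed replicate 3, and 3 of the 4 KO libraries lay above all floxed libraries. The means were 1.33 ± 0.59 and 2.80 ± 1.22 CPM (SD, n = 4 each), with a log2 fold change of 1.06 (SE 0.41) that did not pass the test (adjusted p = 0.171). Without floxed replicate 3 it was 1.44, with an adjusted p of 0.0365. In that fit 3875 genes had an adjusted p below 0.05, beside 651 with all libraries. Without KO replicate 3 the log2 fold change was 0.76, with an adjusted p of 0.344. With a term for replicate numbers 4 and 5, a fit in which 18.5% of genes had an adjusted p below 0.05, it was 1.04, with an adjusted p of 0.0435.

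Cd48 had 55.19, 42.55, 46.22 and 49.51 CPM in the floxed against 42.95, 49.02, 39.13 and 35.18 CPM in the KO libraries, in the same order of replicates. The 2 lowest libraries were KO replicates 4 and 5, and the groups overlapped. The means of 48.4 ± 5.36 and 41.6 ± 5.89 CPM differed by a log2 fold change of -0.22 (SE 0.15, adjusted p = 0.453).

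Within each library, Slamf1 counts were 1.91%, 5.16%, 2.58% and 1.78% of Cd48 counts in floxed against 6.98%, 8.97%, 5.71% and 4.43% in KO replicates. The KO ratios were above all floxed ratios in 3 of 4 libraries, the exception being KO replicate 5, which was below floxed replicate 3. The mean log2 ratio was -5.27 ± 0.70 in floxed against -3.99 ± 0.43 in KO libraries (SD, n = 4 each), a difference of 1.28 with p = 0.0571 in an exact two-sided permutation test over 70 labelings and 0.171 after Benjamini-Hochberg adjustment over 3 ratios. With 70 labelings, a ratio that differed alone could not reach an adjusted p below 0.05 over 3 ratios, even with full separation. The adjusted value therefore does not show that the ratio was the same. The difference was 1.33 within replicate numbers 1 to 3 and 1.23 within 4 and 5. Per kilobase of spliced length, Cd48 was at 3.81 to 5.38 times the level of Kit and Slamf1 at 0.0319 to 0.161 times.

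Kit, the receptor of stem cell factor and the K of LSK, lies on the plus strand of chromosome 5 from 75574916 to 75656722, starting 2260847 bases beyond the end of Ociad1. It varied least of the 10. Its levels were 58.30, 60.16, 51.62 and 53.77 CPM in floxed replicates 1, 3, 4 and 5, against 46.82, 53.15, 51.23 and 52.46 CPM in KO replicates 2, 3, 4 and 5. The highest library was 1.28 times the lowest, and the groups overlapped. The log2 fold change was -0.14 (SE 0.13, adjusted p = 0.58).

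The parts of Kit did not move alike. A shorter annotated transcript covers the last 9.3% of the span of Kit, with 51.9% of the exon bases, and its counts were 63.2%, 57.3%, 85.8% and 80.8% of the Kit counts in the floxed libraries and 85.0%, 82.7%, 88.2% and 87.8% in the KO libraries. Floxed replicates 1 and 3 stood below the other 6. The rest of the gene, from the promoter end, had 21.44, 25.70, 7.31 and 10.35 CPM in floxed against 7.02, 9.18, 6.07 and 6.41 CPM in KO libraries, with means of 16.2 ± 8.77 and 7.17 ± 1.40 CPM (SD, n = 4 each), and the groups overlapped between floxed replicate 4 and KO replicate 3. Libraries differed in this way over other genes too. In 270 protein-coding genes with at least 200 counts in each library and a shorter transcript at the 3′ end covering 5 to 15% of the span, the median share of counts in that part was 35.8% and 28.7% in floxed replicates 1 and 3 and 41.4% to 48.8% in the other 6 libraries. Kit lay at the 83.3 to 92.6 percentile of these genes. The part of this coverage in the Kit values was not tested.

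**Figure D2:**
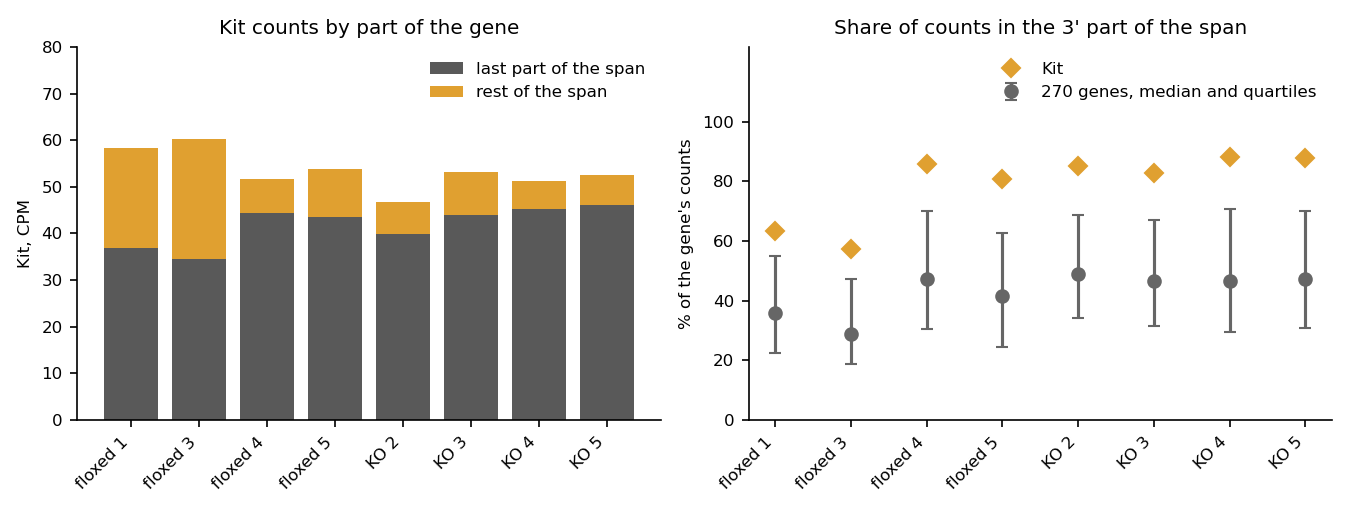
Left, Kit level in CPM in each library, split into the last part of its span and the rest (bars from 0). Right, percent of counts in the 3′ part of the span for Kit (diamonds) and for 270 genes (median, bars from the lower to the upper quartile); floxed replicates 1 and 3 have the lowest shares for both.

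Ly6a encodes Sca-1, a protein held to the membrane by a lipid anchor, and lies on the minus strand of chromosome 15 from 74994878 to 74998031. It is 1 of a cluster of related genes, and 10.04% of the 50-base stretches of its transcript occur in other genes. A read wholly within a stretch shared with another gene cannot be assigned by its sequence to 1 gene. The longest coding stretches shared with Ly6i and with Ly6c2, a monocyte gene, are therefore printed. The first covers 80 bases over exons 2 and 3, within chr15:74996510-74997555, and the second covers 52 bases of exon 4, chr15:74995283-74995334, both on the minus strand of GRCm38.
Ly6a and Ly6i: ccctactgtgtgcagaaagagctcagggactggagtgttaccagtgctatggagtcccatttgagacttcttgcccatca
Ly6a and Ly6c2: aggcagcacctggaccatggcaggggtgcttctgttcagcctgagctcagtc

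Ly6c2 was far above Ly6a, with 652.9 ± 317.0 CPM in floxed against 467.5 ± 43.0 CPM in KO libraries (SD, n = 4 each). Ly6a had 13.11, 4.29, 15.18 and 12.95 CPM in floxed replicates 1, 3, 4 and 5, against 11.28, 9.21, 9.30 and 8.73 CPM in KO replicates 2, 3, 4 and 5. Floxed replicate 3 was the lowest of the 8, and the other 3 floxed libraries were above all KO libraries. The log2 fold change was -0.24 (SE 0.34, adjusted p = 0.735) with floxed replicate 3 and -0.50 (adjusted p = 0.0552) without it. The ratio of Ly6a to Kit, the pair that defines the LSK gate, was 22.5%, 7.14%, 29.4% and 24.1% in floxed against 24.1%, 17.3%, 18.1% and 16.6% in KO libraries. The groups overlapped, and the mean log2 ratio differed by 0.04 (exact two-sided permutation p = 0.971, adjusted 0.971). This value averages opposite signs, 0.69 over the libraries numbered 1 to 3 and -0.62 over those numbered 4 and 5, and it was -0.42 without floxed replicate 3.

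Esam lies on the plus strand of chromosome 9 from 37528078 to 37538319, and no other gene overlaps it or holds a 50-base stretch of its transcript. It had 1.19, 1.32, 0.94 and 1.0 CPM in floxed replicates 1, 3, 4 and 5, against 2.90, 3.33, 4.01 and 3.22 CPM in KO replicates 2, 3, 4 and 5. These values rest on 22 to 70 counts in floxed against 89 to 128 counts in KO libraries. Counting error alone gives 95% Poisson limits of 1.03 to 1.67 CPM for the highest floxed and 2.39 to 3.48 CPM for the lowest KO library. The groups did not overlap, as was so for 7.1% of genes tested in the same direction. The log2 fold change was 1.59 (SE 0.25, adjusted p = 0.0211), which placed Esam at rank 112 of the 21902 genes by p.

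Over 19 other settings the log2 fold change of Esam was 1.52 to 1.71, and its call depended on which libraries were used. Leaving out 1 library at a time, the adjusted p was below 0.05 only without floxed replicate 3 (1.7, adjusted p = 0.00247) and floxed replicate 4 (1.52, adjusted p = 0.044), and 0.0558 to 0.0842 otherwise (1.60, adjusted p = 0.0607, without KO replicate 3). Among all genes, 3875 had an adjusted p below 0.05 without floxed replicate 3 and 264 without floxed replicate 4, beside 651 with all libraries. With the replicate block on numbers 3, 4 and 5, the log2 fold change of Esam was 1.71 with an adjusted p of 0.117. The adjusted p was 0.162 for the same 6 libraries without the block. With the 4 libraries numbered 4 and 5 alone, the log2 fold change was 1.89 with an adjusted p of 0.00119. By DESeq2 the adjusted p over all 8 libraries was 8.43e-06, in a fit where 2021 genes had one below 0.05. By limma-voom it was 0.0227, in a fit where 483 genes had one below 0.05.

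Other genes moved with Esam. Of 9 megakaryocyte genes, 7 rose in KO at an adjusted p below 0.05, as did 268 of all 21902 genes tested. The gene lists were chosen with earlier results of these data known. The summed level of the 9 genes was 70.5 to 138.9 CPM in floxed against 251.4 to 319.1 CPM in KO libraries, with none at 0 in any library. Pf4, a chemokine of platelet granules, rose by 2.27 (SE 0.26, adjusted p = 0.00534), Gp5, of the platelet receptor for von Willebrand factor, by 2.76 (SE 0.40, adjusted p = 0.0156), and Itga2b (CD41), an integrin of platelets and of some HSCs, by 1.27 (SE 0.16, adjusted p = 0.00803) on the log2 scale. Of 10 endothelial genes none passed the test, and all 10 had higher fitted levels in KO. Their summed level was 54.9 to 72.4 CPM in floxed against 83.4 to 99.3 CPM in KO libraries, and the most abundant, Pecam1, an adhesion molecule of endothelium and blood cells, had 43.7 ± 5.98 and 52.2 ± 1.63 CPM (log2 fold change of 0.26, adjusted p = 0.325). Kdr, a receptor of vascular growth factor that was picked after its values were seen, had 1.32 ± 0.786 and 4.19 ± 1.17 CPM (1.65, adjusted p = 0.0592). Of 11 erythroid genes 3 passed the test and rose, the hemoglobin genes Hba-a1 and Hbb-bt and the transcription factor Klf1. All 11 had higher fitted levels in KO. Their summed level was 28046.2 to 70831.3 CPM in floxed against 123105.2 to 295610.2 CPM in KO libraries. The part of megakaryocyte, endothelial or erythroid RNA in the Esam value was not tested.

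Procr encodes the endothelial protein C receptor and lies on the plus strand of chromosome 2 from 155751117 to 155755471. It was at the edge of detection, with 9, 11, 12 and 11 counts in the floxed against 15, 37, 4 and 19 counts in the KO libraries. The levels were 0.24, 0.21, 0.51 and 0.42 CPM in floxed against 0.38, 0.96, 0.14 and 0.69 CPM in KO libraries. KO replicates held both the highest and the lowest value. The 4 counts of KO replicate 4 allow 0.0387 to 0.363 CPM and the 37 of KO replicate 3 allow 0.677 to 1.33 CPM (95% Poisson limits for counting error). These limits do not overlap, so the KO libraries differed by more than counting error. The log2 fold change of 0.70 (SE 0.60, adjusted p = 0.545) did not pass the test. It was 0.26 (adjusted p = 0.863) without KO replicate 3, 1.6 (SE 0.76) over the libraries numbered 1 to 3 and -0.17 (SE 0.71) over those numbered 4 and 5.

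Tek encodes the receptor of angiopoietins and lies on the plus strand of chromosome 4 from 94739289 to 94874976. It had 1.87, 2.40, 0.77 and 0.69 CPM in floxed against 1.46, 1.66, 1.21 and 1.2 CPM in KO libraries. The floxed libraries held the 2 highest and the 2 lowest values. The fitted difference was -0.07 (SE 0.43, adjusted p = 0.95), and its sign turned in 7 of 19 other settings, none with an adjusted p below 0.643. Without floxed replicate 3 it was 0.32.

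Cd34 encodes a sialomucin of progenitors and endothelium and lies on the plus strand of chromosome 1 from 194938819 to 194961279. It had 32.49, 17.48, 36.74 and 33.72 CPM in floxed against 23.93, 29.72, 25.05 and 25.72 CPM in KO libraries. Floxed replicate 3 was the lowest of the 8, as for Ly6a, and the other 3 floxed libraries were above all KO libraries. The log2 fold change was -0.20 (SE 0.23, adjusted p = 0.653), and -0.38 (adjusted p = 0.0701) without floxed replicate 3. The antisense gene Gm16897 overlaps 5521 bases of Cd34, 1719 of them exonic, and its counts were 87.41% of the Cd34 counts. As counts cover both strands here, RNA of the pair cannot be told apart.

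Flt3, the receptor of the FLT3 ligand, lies on the minus strand of chromosome 5 from 147330741 to 147400489. It had 16.22, 19.42, 12.20 and 11.34 CPM in floxed against 19.22, 24.39, 12.84 and 14.67 CPM in KO libraries, and the groups overlapped (log2 fold change of 0.26, SE 0.25, adjusted p = 0.592). Without floxed replicate 3 the log2 fold change was 0.44 (adjusted p = 0.272), and without KO replicate 3 it was 0.08 (adjusted p = 0.9). Flt3 counts were 2130 to 9340% of Procr counts, and the mean log2 ratio differed by -0.19 between KO and floxed (exact two-sided permutation p = 0.743, adjusted 0.971). This ratio follows the few Procr counts, with -1.17 within replicate numbers 1 to 3 and 0.79 within 4 and 5.

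Il7r, the alpha chain of the interleukin-7 receptor of lymphoid progenitors, lies on the minus strand of chromosome 15 from 9505788 to 9529835. It had 30.11, 62.52, 21.73 and 16.67 CPM in floxed against 28.78, 29.00, 20.90 and 24.13 CPM in KO libraries. Floxed replicate 3 stood above the other 7 libraries, which reached 30.11 CPM. The log2 fold change was -0.35 (SE 0.37, adjusted p = 0.631), and 0.18 (adjusted p = 0.62) without floxed replicate 3.

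**Figure D3:**
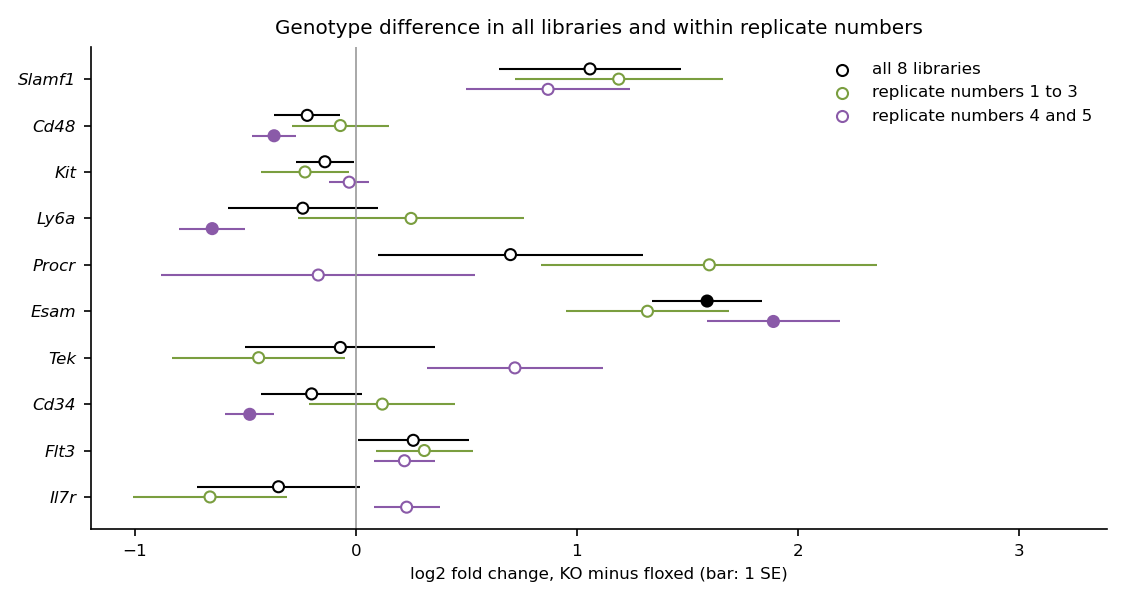
Log2 fold change of each gene, KO minus floxed, with bars of 1 SE, over all 8 libraries (black), within replicate numbers 1 to 3 (green) and within 4 and 5 (purple); filled points have an adjusted p under 0.05. Esam is filled over all libraries and within 4 and 5, and Cd48, Ly6a and Cd34 are filled and negative only within 4 and 5.

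The libraries also split by replicate number. In Flt3, Tek and Il7r, both libraries of a genotype with a number from 1 to 3 were above both of its libraries numbered 4 or 5. The labels do not say what the numbers stand for. Within numbers 1 to 3 no surface gene had an adjusted p below 0.05, in a fit where 0.00855% of genes had one, and Esam had a log2 fold change of 1.32 (SE 0.37, adjusted p = 0.198). Within 4 and 5, 4 of the 10 had an adjusted p below 0.05, where 32.8% of all genes tested had one. Esam was higher (SE 0.30), as given above, and Ly6a (-0.65, SE 0.15, adjusted p = 0.00885), Cd34 (-0.48, SE 0.11, adjusted p = 0.00777) and Cd48 (-0.37, SE 0.10, adjusted p = 0.022) were lower. With 2 libraries against 2, these fits leave little to measure the spread. The test of the difference between the number groups passed for none of the 10, with adjusted p of 0.57 to 0.934.

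Ranked by mean level per kilobase of spliced length, the floxed libraries gave the order Cd48 (52.5 CPM per kb), Cd34 (12.3), Ly6a (11.9), Kit (10.7), Il7r (9.25), Flt3 (4.05), Esam (0.595), Slamf1 (0.494), Tek (0.315) and Procr (0.216). Cd48 stood apart from Cd34, and Flt3 from Esam. The other neighbours in the order overlapped over the 4 libraries. The KO order differed only in Procr and Tek, which overlapped. Among 14501 protein-coding genes tested, Cd48 lay at the 89.0 to 94.1 percentile of level per kilobase of spliced length, Kit at 58.8 to 65.2, Slamf1 at 11.5 to 25.3 and Procr at 3.0 to 15.3. Because the counts cover introns, the order was also taken per kilobase of genomic span, where Ly6a was first, Cd48 second and Tek last, and only Flt3 and Esam kept their places. Procr, Esam, Slamf1 and Tek were the 4 lowest in floxed libraries on both lengths.

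**Figure D4:**
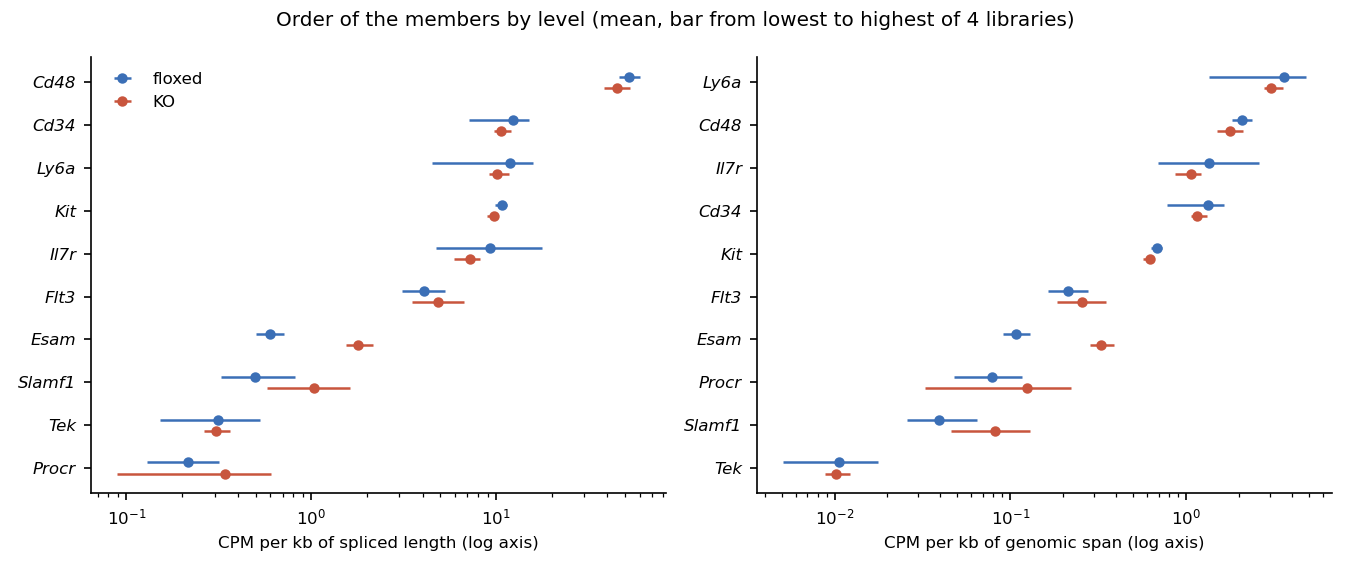
Mean level of the 10 genes per kilobase of spliced length (left) and of genomic span (right), on log axes, with bars from the lowest to the highest of 4 libraries (floxed in blue, KO in red), in the order of the floxed means. Esam has KO values of 1.55 to 2.15 against floxed values of 0.502 to 0.71 CPM per kb of spliced length.

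Genes with the most similar pattern over the 8 libraries were taken by Pearson correlation of log2 CPM, and all share the same libraries. The search covered 13697 tested protein-coding genes, with clone and model names (Gm or Rik) left out. As the highest of so many correlations over 8 libraries, the values are high by selection, and they were not set against a baseline. For Slamf1 they were Las1l (r = 0.984), Cnbp (0.984) and Prkcq (0.978). For Cd48 they were Nedd9 (0.966), Ppp1r26 (0.96) and P2ry10 (0.957). For Kit they were Sesn3 (0.984), Hs6st2 (0.981) and Synpo2 (0.962). For Ly6a they were Mcemp1 (0.994), Cyba (0.991) and Capzb (0.989). After centring within the 2 groups of replicate numbers, these 12 correlations were 0.954 to 0.997.

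Of 5 tested genes of the ligands of these proteins and of 20 genes of receptor partners and signalling, none passed the test. The median log2 fold changes were 0.65 and -0.23, beside -0.01 over all genes tested. Fitted levels were higher in KO for 4 of the 5 ligand genes and lower for 16 of the 20 signalling genes, and the groups did not overlap for 1 of the first (Il7) and 3 of the second (Cbl, Jak1 and Gab2), as was so for 7.1% of genes tested in the higher and 7.67% in the lower direction. Flt3l, the ligand of Flt3, had 13 ± 1.7 CPM in floxed against 14.5 ± 2.14 CPM in KO libraries, and Angpt1, a ligand of Tek, had 12.4 ± 2.61 and 11.7 ± 2.03 CPM (SD, n = 4 each). Cbl, a ubiquitin ligase that turns over activated c-Kit and FLT3, had 336.7 ± 77.4 CPM in floxed against 188.8 ± 15.5 CPM in KO libraries, with no overlap (log2 fold change of -0.83, adjusted p = 0.0501). Jak1, a kinase of cytokine receptors such as that of interleukin-7, had 212.4 ± 32.9 and 138.6 ± 15.4 CPM (-0.62, adjusted p = 0.0728), and Lyn, a kinase of the SRC family, had 249.9 ± 60.8 and 174.3 ± 13.4 CPM (-0.52, adjusted p = 0.18). None of 11 genes of the SLAM family or of 7 tested genes of the Ly6 family passed. The most abundant of the SLAM family was Cd84 (170.3 ± 48.6 CPM in floxed, 117.6 ± 24.5 CPM in KO), and those of the Ly6 family were Ly6e (562.0 ± 235.7 and 674.9 ± 121.3 CPM) and Ly6c2.

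Among 22 other surface genes of HSCs none fell, and Itga2b, which is also in the megakaryocyte list, rose as given above. The median over the 22 genes was 0.09. Of 17 progenitor surface genes none passed, with a median of -0.16, and the most abundant, Cd24a, had 1369.7 ± 292.0 CPM in floxed against 2000.1 ± 122.6 CPM in KO libraries (log2 fold change of 0.55, adjusted p = 0.179). Of 9 tested HSC regulators 1 passed, Pdzk1ip1, which encodes a small membrane protein, with 21.3 ± 9.39 CPM in floxed against 65.4 ± 5.88 CPM in KO libraries (log2 fold change of 1.61, SE 0.27, adjusted p = 0.0245). Gata2, a transcription factor of HSCs and of megakaryocyte and mast cell precursors, had 37.9 ± 18.2 and 31.2 ± 5.80 CPM (log2 fold change of -0.28, adjusted p = 0.694). None of 13 lineage genes and none of 11 neutrophil genes passed, with medians of -0.52 and -0.56.

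**Figure D5:**
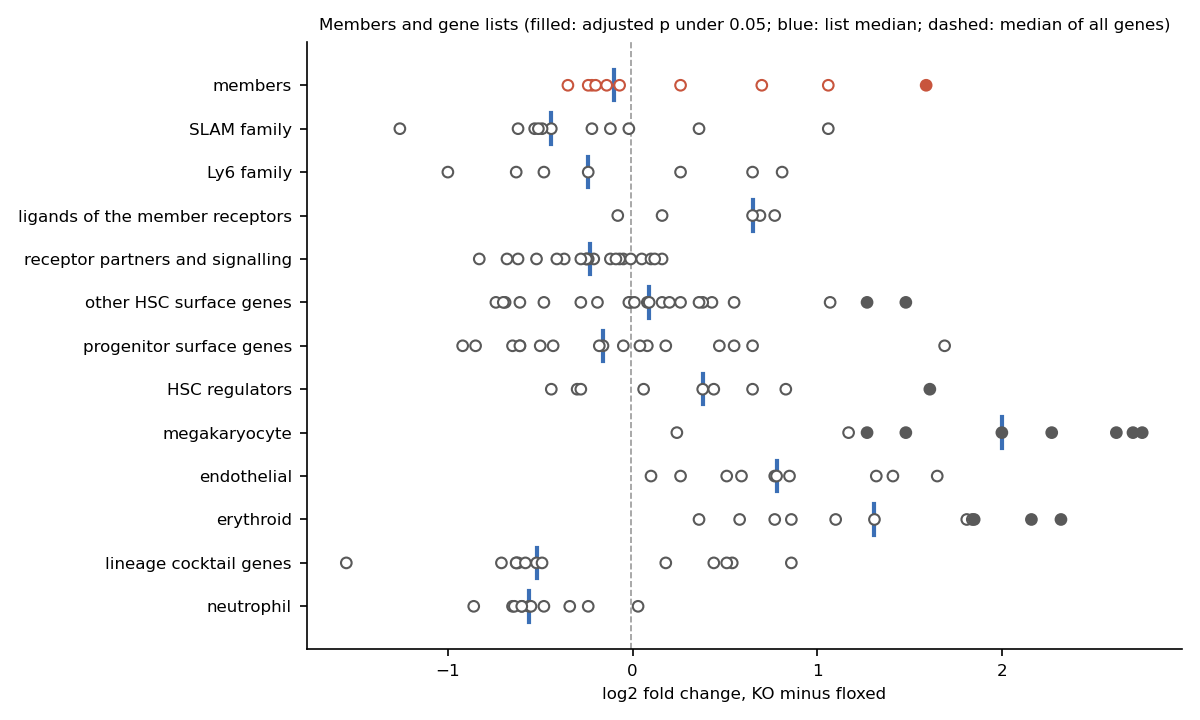
Log2 fold change, KO minus floxed, of the tested genes of each list (circles; filled where the adjusted p is under 0.05), the list median (blue) and the median of all genes tested (dashed). Among the surface genes only Esam is filled, whereas 7 of 9 megakaryocyte genes are filled and positive.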

How the data were processed

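RNA of sorted cells was sequenced from 4 asrij floxed and 4 asrij KO mice. By the methods and the submitters' processing notes, the authors used FastQC and Trim Galore on the reads and Bowtie2 to align to GRCm38/mm10. They deposited whole-number, unnormalized counts of 138930 Ensembl transcripts. Versions and the counting tool are not given in the sources used here. An automatic unit check could not read 7 of the files, so the counts were checked for whole numbers separately. The 10 genes and all gene lists were chosen with earlier results of these data known.

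Transcripts were mapped to GENCODE M21 (138789 matched), and the transcript of a gene with most reads over the 8 libraries stood for it. Counts cover introns and both strands: in 2386 of 2386 pairs of genes, 1602 on opposite strands, the gene holding the other in an intron had at least its count in every library. Isoforms were therefore not told apart.

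Genes were filtered with filterByExpr, scaled by TMM and tested with the quasi-likelihood test of edgeR 4.0.16 under R 4.3.3, which was checked on simulated data. P-values were adjusted by the method of Benjamini and Hochberg over 21902 genes. Standard errors are the log2 fold change over the root of its F statistic. Ratios were compared by exact two-sided permutation tests. Alternatives used DESeq2 1.42.0 and limma-voom (limma 3.58.1), other scaling and filters, sums over transcripts, and each library left out. Named genes were the 10, from each list up to 3 genes a direction with the smallest adjusted p below 0.05 and the 2 with the highest mean CPM, and the 3 genes most like each of 4 members. Other genes named were picked after their values were seen. Some genes of the lists are not reported here. Fits within replicate numbers were added after the data were seen. The p-values measure the spread between mice of a genotype, with 1 library a mouse.

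Numbers 3, 4 and 5 occur in both genotypes. The deviations of same-numbered libraries from their group means correlated at 0.374, 0.394 and 0.579, and they were treated as pairs in the replicate block. Libraries with different numbers also correlated. Floxed replicate 1 did so with KO replicates 2 and 3 (0.443 and 0.514), and floxed replicate 3 with KO replicate 2 (0.346). Floxed replicates 4 and 5 did so with KO replicates 5 and 4 (0.384 and 0.603). Correlations between numbers 1 to 3 and numbers 4 and 5 were all negative. The values therefore follow these groups of numbers and do not single out same-numbered libraries as pairs. Intervals cover counting error only.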

Additional observations from a re-analysis of the deposited data

Results flagged for a closer look

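Of 20 groups of 4 libraries, 10 genes in each genotype, 2 held a library far from the other 3 by a test of the gap against the range, where chance flags about 1 in 20 groups. Both were floxed replicate 3. On the log2(CPM + 1) scale, Ly6a was at 2.40 there, with 3.8 to 4.02 in the other floxed libraries, a gap of 0.868 of the range. Cd34 was at 4.21, with 5.07 to 5.24 in the other floxed libraries, a gap of 0.833 of the range. The same library was the highest of the 8 for Kit, Tek and Il7r, and its part in these values beyond leaving it out was not tested. The test of a difference in genotype effect between replicate numbers 1 to 3 and 4 and 5 passed for none of the 10 genes (adjusted p of 0.57 to 0.934 from edgeR).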

How the results depend on the processing

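Esam was the 1 gene of the 10 that was called, and 0 of the 10 were called at a minimum of 100 counts in 4 libraries (Esam, Slamf1, Procr and Tek were then not tested), with the replicate block on numbers 3, 4 and 5, and for those numbers without the block. At an adjusted p below 0.05 without the fold limit, these settings also gave 0, and the term for numbers 4 and 5 gave 2, Esam and Slamf1. With each library left out, the count was 0 to 1 with the fold limit and 0 to 2 without it. Over all genes tested these fits called from 51 (without floxed replicate 1) to 857 (without floxed replicate 3). The other scalings, DESeq2, limma-voom, the sum over transcripts and leaving out hemoglobin or immunoglobulin genes left Esam called. Tek turned sign, to 0.27 with the replicate block, 0.08 without it on the same libraries, 0.08 with the term for numbers 4 and 5, and -0.29 to 0.32 with each library left out, and Il7r ran from -0.56 to 0.18 there. The cause was not tested. The replicate block changed no other call. With each library left out, the differences in log2 ratio ran from 1.10 to 1.61 for Slamf1 to Cd48, -0.42 to 0.26 for Ly6a to Kit and -0.59 to 0.16 for Flt3 to Procr, so that the sign of the last 2 turned, and were 1.09, 0.02 and -0.10 as means over the 3 same-numbered pairs. In the order by level, 2 of 10 genes kept their place per kilobase of genomic span. Depth limits Procr (4 to 37 counts), Tek, Esam and Slamf1 most.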

Other observations

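Cell types that the sort should remove were also read from their marker genes. Of 10 B cell and plasma cell genes, Vpreb1 (log2 fold change of 1.66, adjusted p = 0.0266) and Cd79a (0.81, adjusted p = 0.0408), of the B cell receptor and its precursor, rose in KO, and Jchain, the joining chain of secreted antibodies, fell by 1.66 (adjusted p = 0.0239). Their summed level was 400.5 to 545.9 CPM in floxed and 485.4 to 544.8 CPM in KO libraries. Of 11 T and NK cell genes, Ncr1, a receptor of NK cells, fell by 1.72 (adjusted p = 0.0291), and of 7 tested mast cell and basophil genes Fcer1a, of the IgE receptor, fell by 2.22 (adjusted p = 0.0346). Of 11 monocyte, macrophage and dendritic cell genes, C1qa, a complement gene of macrophages, rose by 1.26 (adjusted p = 0.0334), and of 8 stromal genes Adipoq, the gene of adiponectin, rose by 1.92 (adjusted p = 0.028) on the log2 scale in the edgeR test.

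The share of counts in 5′ parts of other surface genes also varied between libraries, and not always in floxed replicates 1 and 3 as for Kit. The first 52.8% of the span of Cd34 held 18.3% to 20% of its counts in floxed replicates 1 and 3 and 5.4% to 13.3% in the other 6 libraries. A 5′ part of Il7r with 74.3% of its span held 33.2% of the counts in floxed replicate 3 and 12.2% to 21.6% elsewhere, and a 5′ part of Ly6a with 41.3% of its span held 35.7% in floxed replicate 3 and 4.6% to 17.2% elsewhere, with floxed replicate 1 (16.5%) below KO replicate 3. The first 54.4% of the span of Flt3 held most in floxed replicate 5 (33.4%), with 30.4% and 24.1% in floxed replicates 3 and 1 and 20.5% to 27.3% in the other 5 libraries. For Esam, a part from 27.8% to 59.8% of the span held 22.9% of the counts in floxed replicate 3 and 15.4% in floxed replicate 5. It held 1.6% to 6.7% in the other 6 libraries, and the part had only 1 to 16 counts a library. These shares are given without a test.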
